A study of Mus musculus with 90 samples.

Results

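The transcription factor genes Onecut1, Onecut2, Wt1, Pou4f1, Pax2, Lmx1b, Shox2, Skor1, Twist1 and Tal1 lie outside the Hox clusters. They are 10 of the 38561 gene identifiers measured. They had been picked for a level near 0 in wild-type (WT) mice and a higher one in the striatum or the cortex of Q175 mice. The difference between the genotypes is therefore given as a description, with no test.

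RNA was sequenced from the cortex and striatum of the right hemisphere of 45 mice, 1 library per tissue and mouse, 90 libraries in all. All mice were C57BL6/J and 9 months old. The Q175 line carries a long CAG tract in its own huntingtin gene and serves to model Huntington's disease, and the mice were homozygous, so that no normal allele was left. Per tissue, vehicle had been given to 9 WT mice (5 females) and 7 Q175 mice (5 females). The PDE10A inhibitor PF-02545920 had been given by mouth once a day, from the age of 5 weeks, to 10 Q175 mice at 0.32 mg/kg (5 females), 10 at 1.0 mg/kg (5 females) and 9 at 3.2 mg/kg (5 females). No WT group with the inhibitor was analysed here. Mice are named by sex and number within their group, so that F4 is female 4.

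These genes encode regulators that set cell fates in the embryo. In most adult neurons such genes are silent, and the Polycomb complexes, which place and read methyl groups on lysine 27 of histone H3, are known to keep many of them off, mainly at promoters rich in CpG dinucleotides. Onecut1, Onecut2, Lmx1b, Shox2, Pou4f1 and Pax2 encode DNA-binding proteins with a homeodomain or a paired domain, Wt1 a zinc finger protein, Skor1 a corepressor, and Twist1 and Tal1 basic helix-loop-helix (bHLH) proteins that bind the E-box.

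The promoters of 8 of the 10 genes were in the RefSeq table for GRCm38.p6, as windows of 300 bases from 250 before to 50 after a transcript start. The 4 shown are those of the genes whose level in the striatum went with their level in the cortex of the same mouse. CpG dinucleotides are in capitals and each window reads 5′ to 3′ on the strand of the gene.
Pou4f1, chr14:104467950-104468249, minus strand: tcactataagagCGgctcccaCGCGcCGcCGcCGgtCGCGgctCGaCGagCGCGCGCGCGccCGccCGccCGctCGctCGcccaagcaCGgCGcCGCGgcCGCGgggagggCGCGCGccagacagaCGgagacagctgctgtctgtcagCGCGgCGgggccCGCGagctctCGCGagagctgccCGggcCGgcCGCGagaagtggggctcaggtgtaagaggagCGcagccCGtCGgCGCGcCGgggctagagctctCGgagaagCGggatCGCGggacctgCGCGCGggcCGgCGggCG
Skor1, chr9:63148912-63149211, minus strand: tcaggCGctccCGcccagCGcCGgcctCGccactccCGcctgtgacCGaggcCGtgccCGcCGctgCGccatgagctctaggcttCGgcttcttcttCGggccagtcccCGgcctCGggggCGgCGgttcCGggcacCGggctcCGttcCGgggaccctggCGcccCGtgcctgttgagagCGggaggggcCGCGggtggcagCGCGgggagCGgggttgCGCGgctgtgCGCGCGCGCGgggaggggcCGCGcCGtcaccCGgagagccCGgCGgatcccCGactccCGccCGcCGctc
Shox2, chr3:66981722-66982021, minus strand: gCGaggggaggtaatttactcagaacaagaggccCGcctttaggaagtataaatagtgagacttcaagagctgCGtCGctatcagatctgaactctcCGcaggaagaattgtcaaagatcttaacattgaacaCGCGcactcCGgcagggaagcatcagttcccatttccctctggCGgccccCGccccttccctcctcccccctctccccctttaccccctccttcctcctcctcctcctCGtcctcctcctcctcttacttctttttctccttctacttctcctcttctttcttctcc
Twist1, chr12:33957421-33957720, plus strand: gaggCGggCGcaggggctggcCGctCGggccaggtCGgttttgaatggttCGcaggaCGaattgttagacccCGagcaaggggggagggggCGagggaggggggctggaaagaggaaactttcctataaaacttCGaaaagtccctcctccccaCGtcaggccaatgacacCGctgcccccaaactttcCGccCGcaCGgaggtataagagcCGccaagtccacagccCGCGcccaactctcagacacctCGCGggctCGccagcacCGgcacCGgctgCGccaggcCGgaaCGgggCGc

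The Pou4f1 window held 57 CpG, a number reached by 0.152% of the 32851 windows of the table, whose median was 7. The window nearest to the gene start held 46 CpG in Skor1, 38 in Onecut1, 27 in Twist1, 24 in Lmx1b, 23 in Pax2 and 11 in both Shox2 and Tal1. All 8 windows thus lay above the median, and Shox2 and Tal1 were nearest to it, at a number reached by 41.4% of windows. Among all windows 35.7% held GGGCGG, the GC box, on either strand, and of the 8 it was found in 6, with 3 matches in Onecut1 and Skor1. TATAAA on either strand was found in 13.6% of all windows and in those of Shox2 and Twist1. The E-box letters CANNTG, found in 72.3% of all windows, had 2 matches in Onecut1 and Pou4f1, 1 in Pax2, Lmx1b and Tal1, and 0 in Shox2, Skor1 and Twist1. These are matches of letters, and no binding was measured.

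Total counts ran from 30.5 M to 44.9 M per striatum library and from 37.2 M to 45.8 M per cortex library. Levels are CPM, counts scaled to a common library size over all 90 libraries with TMM factors, and errors are SD over mice. The tissue labels matched their markers: in WT mice the summed level of 8 medium spiny neuron (MSN) genes had a median of 7578 CPM in the striatum and 587.1 CPM in the cortex, and that of 6 cortical excitatory neuron genes was 32.8 to 409.8 and 1380 to 1517 CPM. The Q175 vehicle striatum held 2897 to 3414 CPM of the MSN markers, 7 of the 8 being called lower. In bulk tissue, fewer cells of a type and less RNA per cell cannot be told apart. Other lists moved in part in the striatum, with 3 of 5 oligodendrocyte, 3 of 5 astrocyte, 2 of 6 endothelial and 1 of 5 pericyte and smooth muscle markers lower and 1 astrocyte marker higher. None of the 6 cortical excitatory, 6 choroid plexus, 5 ependymal, 7 meningeal fibroblast, 5 microglia and 5 measured erythroid markers was called there (edgeR). In Q175 vehicle F4 the erythroid markers summed to 1205 CPM in the striatum and 1439 CPM in the cortex, far above the other libraries.

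**Figure D1:**
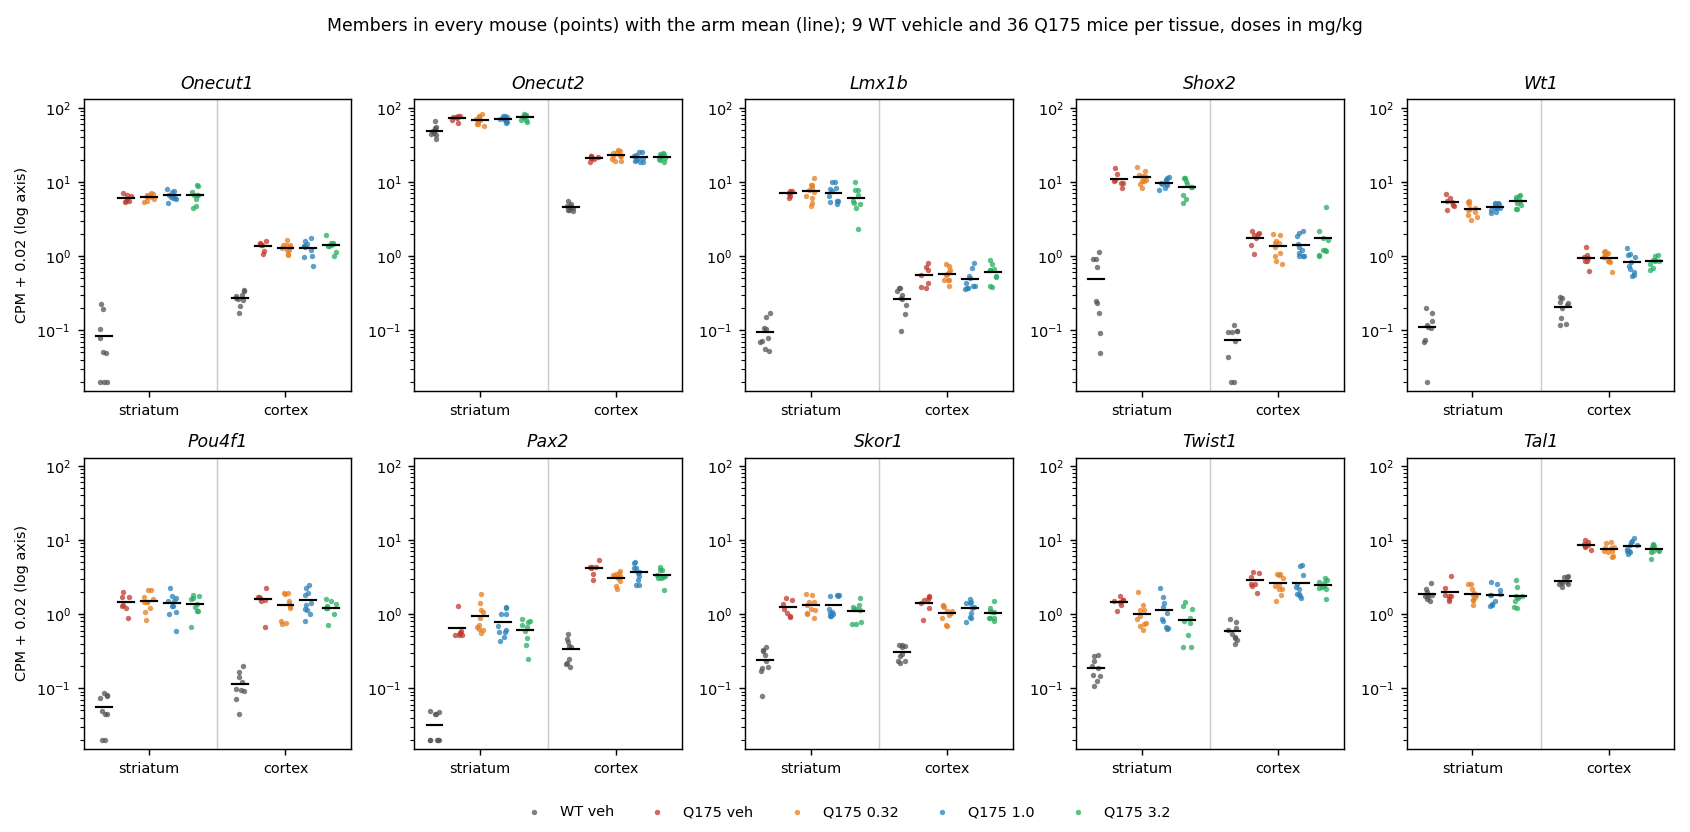
Level of each gene in every mouse, as CPM + 0.02 on a log axis, by tissue and group, with the group mean as a line. The Q175 points lie above the WT points in both tissues except for Onecut2 and Tal1 in the striatum and a few mice for Lmx1b in the cortex.

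The homeodomain genes Onecut1 and Lmx1b had the highest ratio between the genotypes in the striatum. Onecut1, a factor of liver, pancreas and motor neuron development, had 0 to 0.203 CPM in WT striatum with a median of 0.0302, which is 22 counts over 9 libraries. In Q175 vehicle striatum its lowest, median and highest values were 5.30, 5.87 and 7.13 CPM. The means were 0.0640 ± 0.0761 (n = 9) and 6.05 ± 0.690 CPM (n = 7), a fitted log2 difference of 6.36 ± 0.229 (SE). Lmx1b, which specifies midbrain dopaminergic and hindbrain serotonergic neurons, had lowest, median and highest values of 0.0327, 0.0573 and 0.151 CPM in the WT striatum and of 6.01, 7.14 and 7.59 CPM in the Q175 vehicle striatum. The groups of both genes were far apart, and Lmx1b had a log2 difference of 6.41 ± 0.301. Of the 2 measured serotonergic and the 2 measured dopaminergic markers, 0 were higher in Q175 vehicle striatum and 1 of each was lower (edgeR). With so few counts in WT mice, a log2 difference and its SE depend on the small count that the fit adds, and the levels are the firmer values.

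Shox2 is a homeodomain gene of limb, heart and thalamus development. Its lowest, median and highest WT values were 0.0286, 0.229 and 1.11 CPM, and those of Q175 vehicle mice were 8.33, 10.3 and 15.2 CPM. The lowest Q175 vehicle mouse stood well above the highest WT mouse, and the log2 difference was 4.46 ± 0.253. Across the 9 WT striatum libraries Shox2 went with the summed level of 8 thalamus and habenula markers (Pearson r = 0.751, exact permutation p = 0.0275; Spearman rho = 0.733, exact permutation p = 0.0311; r = 0.682 without the 2 libraries farthest from the median marker level). The WT relation was computed for Shox2 and this list alone, and its p-values were not adjusted. These WT values were also part of the contrast that picked the genes. Over the 36 Q175 striatum libraries, as deviations from group and sex means, the relation was not called (r = 0.480, adjusted permutation p = 0.0553). In the thalamus and habenula list 1 of 8 markers was called higher in Q175 vehicle striatum. Its summed range was 83.2 to 91.9 CPM in WT mice and 81.4 to 146.7 CPM in Q175 vehicle mice. Shox2 overlaps Rsrc1 on the opposite strand, and with no statement on strand the reads of the overlap cannot be told apart. Rsrc1 stood at 39.1 CPM in WT mice and 47.5 CPM in Q175 vehicle striatum (log2 difference 0.27 ± 0.0376, edgeR adjusted p = 8.38e-08).

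Wt1, a zinc finger gene of kidney and gonad development, had 0, 0.0906 and 0.177 CPM as lowest, median and highest values in WT striatum. The values in Q175 vehicle striatum were 4.15, 5.31 and 6.84 CPM, a log2 difference of 5.81 ± 0.175, again with no overlap. Of 3 kidney podocyte markers 2 were measured there, with 0 higher and 1 lower (edgeR). Pou4f1, a POU homeodomain gene of sensory neurons and the medial habenula, had 11 counts over the 9 WT striatum libraries and 36 to 66 counts per Q175 vehicle library. Its means were 0.0350 ± 0.0252 and 1.42 ± 0.365 CPM. Pax2, a paired-domain gene of the kidney and the midbrain-hindbrain boundary, had 4 counts in all in WT striatum and 0 in 5 of the 9 libraries. Its Q175 vehicle values were 0.497, 0.529 and 1.27 CPM, so that 1 mouse lay far above 6 that were close together. The corepressor gene Skor1, known from spinal cord neurons, and Twist1, a bHLH gene of the mesenchyme, had higher WT levels. Skor1 stood at 0.218 ± 0.0912 CPM in WT mice and 1.21 ± 0.287 CPM in Q175 vehicle striatum, and Twist1 at 0.168 ± 0.0614 and 1.44 ± 0.210 CPM.

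The picture of a gene near 0 in WT mice did not hold for Onecut2 and Tal1. Onecut2, a paralogue of Onecut1, had 37.8, 48.5 and 66.1 CPM in WT striatum and 63.6, 75.4 and 77.6 CPM in Q175 vehicle striatum. The groups overlapped and the ratio of the means was 1.49. Tal1, a bHLH gene of blood formation and of midbrain GABA neurons, had 1.49, 1.81 and 2.63 CPM in WT mice and 1.48, 1.75 and 3.20 CPM in Q175 vehicle striatum. Its genotype groups there overlapped, with a log2 difference of 0.01 ± 0.168. Every Q175 vehicle mouse lay above every WT mouse for 8 of the 10 genes in the striatum, as for 6.68% of the 17315 genes tested, and the genes had been picked on this contrast.

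In the cortex all 10 genes were separated in this way, against 4.94% of 17603 genes, on the same picked contrast. Lmx1b was separated only barely, with 0.0767, 0.252 and 0.3545 CPM in WT mice and 0.3550, 0.533 and 0.795 CPM in the Q175 vehicle cortex. Pax2 had 0.171, 0.344 and 0.520 CPM in WT mice and 2.90, 4.26 and 5.35 CPM in Q175 vehicle cortex, with no overlap. Tal1 had 2.27, 2.66 and 3.26 CPM in WT mice and 7.33, 8.54 and 9.86 CPM in Q175 vehicle cortex. The WT level of Tal1 was thus not near 0 in the cortex either. Onecut2 had 4.05, 4.50 and 5.59 CPM in WT mice and 18.7, 21.4 and 22.5 CPM in Q175 vehicle cortex, a ratio of 4.60. Shox2 was at 0 in 2 of the 9 WT libraries, with 19 counts in all, and had 1.74 ± 0.388 CPM in Q175 vehicle cortex. The other means in Q175 vehicle cortex were 1.35 CPM for Onecut1, 0.923 for Wt1, 1.56 for Pou4f1, 1.41 for Skor1 and 2.82 for Twist1. The corresponding WT means were between 0.0938 and 0.563 CPM. Of the markers that could accompany Tal1, 0 of 5 measured erythroid, 0 of 6 endothelial and 0 of 5 pericyte and smooth muscle genes were called between the genotypes in the cortex (edgeR). Other marker lists moved there: 8 of 8 MSN, 4 of 6 cortical excitatory, 3 of 5 astrocyte, 2 of 8 thalamus and habenula, 3 of 4 measured hypothalamus and 3 of 5 oligodendrocyte markers were called lower in Q175 vehicle mice (edgeR). Those called higher were 1 of 5 oligodendrocyte, 1 of 2 measured serotonergic and 1 of 3 podocyte markers, with 1 podocyte marker lower and 0 of 3 measured dopaminergic markers called. The summed cortical excitatory level had a median of 1451 CPM in WT mice and 1305 CPM in Q175 vehicle cortex, and the part of these markers in the levels of the 10 genes was not tested.

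For most of the genes the dosed Q175 mice also lay above the WT mice, which is given as a description. Of all 36 Q175 mice, 36 lay above the highest WT mouse for Onecut1, Wt1, Pou4f1, Pax2, Shox2, Skor1 and Twist1 in both tissues, and for Lmx1b in the striatum. The number was 33 for Lmx1b in the cortex, 36 for Onecut2 and Tal1 in the cortex, 28 for Onecut2 in the striatum and 3 for Tal1 in the striatum. The 36 mice include the 7 vehicle mice of the contrast that picked the genes. The share of all genes separated over 36 mice was not computed, so these counts have no background.

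Levels of different genes were compared on the deposited FPKM values, which are scaled by length. In Q175 vehicle striatum the order was Onecut2 (5.54 ± 0.367 FPKM), Shox2 (4.34 ± 0.920), Wt1 (2.27 ± 0.374), Onecut1 (1.68 ± 0.189), Lmx1b (1.502 ± 0.122), Twist1 (0.904 ± 0.131), Pou4f1 (0.580 ± 0.174), Tal1 (0.493 ± 0.136), Skor1 (0.341 ± 0.0821) and Pax2 (0.212 ± 0.0761). The SD ranges of neighbours overlapped for Onecut2 and Shox2, for Onecut1 and Lmx1b, and from Pou4f1 through Tal1 and Skor1 to Pax2, and not for the other neighbours. In Q175 vehicle cortex the order of the means was Tal1 (2.10 ± 0.234 FPKM), Twist1 (1.75 ± 0.401), Onecut2 (1.58 ± 0.103), Pax2 (1.25 ± 0.257), Shox2 (0.683 ± 0.1496), Pou4f1 (0.551 ± 0.129), Wt1 (0.419 ± 0.102), Skor1 (0.393 ± 0.0885), Onecut1 (0.371 ± 0.0517) and Lmx1b (0.119 ± 0.0407). The SD ranges of neighbours overlapped there from Tal1 through Twist1 and Onecut2 to Pax2, and from Shox2 through Pou4f1, Wt1 and Skor1 to Onecut1. They did not overlap between Pax2 and Shox2 or between Onecut1 and Lmx1b.

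Which tissue of a Q175 mouse held more of each gene was compared within mice, with the mouse as a block. The 7 Q175 vehicle mice were among those that picked the genes, so their values are a description. The test rests on the 29 dosed Q175 mice, a setting added after seeing the data. The dosed mice share the genotype for which the genes were picked, so this test is not independent of the pick. In the vehicle mice the fitted striatum to cortex difference on the log2 scale was 3.69 ± 0.113 for Lmx1b, 2.65 ± 0.0979 for Shox2, 2.53 ± 0.0962 for Wt1, 2.16 ± 0.0881 for Onecut1 and 1.79 ± 0.034 for Onecut2. All 7 mice had the higher level in the striatum for each of these genes. Pax2 (-2.73 ± 0.183), Tal1 (-2.15 ± 0.122) and Twist1 (-0.96 ± 0.108) had more in the cortex in 7 of 7 mice. Pou4f1 (-0.13 ± 0.142) and Skor1 (-0.23 ± 0.166) lay close to 0, and 4 and 5 of 7 mice had more in the cortex. Among all 16841 genes in these mice, 37.4% were called higher in the striatum and 36.1% in the cortex. In the dosed mice striatum was higher for 6 of 10 genes, where 42.1% of 16953 genes were called, and cortex was higher for 3, where 38.6% were called. Shares of this size are common among all genes, so the counts say little about the members. The sizes in the dosed mice were 3.67 ± 0.0752 for Lmx1b, 2.78 ± 0.0941 for Shox2, 2.46 ± 0.0683 for Wt1, 2.31 ± 0.0688 for Onecut1 and 1.69 ± 0.0402 for Onecut2, each higher in the striatum in 29 of 29 mice (edgeR adjusted p of 3.19e-24 for Shox2 and lower for the others). Pax2 (-2.14 ± 0.103), Tal1 (-2.10 ± 0.0641) and Twist1 (-1.41 ± 0.0858) were higher in the cortex in 29 of 29 mice (edgeR adjusted p of 9.16e-20, 1.51e-25 and 8.98e-17). Skor1 was called higher in the striatum by 0.20 ± 0.0679 (edgeR adjusted p = 0.00914), in 21 of 29 mice, the opposite side of 0 from its value in the vehicle mice. Pou4f1 was not called (0.05 ± 0.0668, 2 SE range -0.08 to 0.19, edgeR adjusted p = 0.452), with 17 of 29 mice higher in the striatum. Over all 36 Q175 mice the 8 genes other than Pou4f1 and Skor1 had 1 direction in 36 of 36, while Pou4f1 was higher in the striatum in 20 of 36 and Skor1 in 23 of 36. Both paralogues Onecut1 and Onecut2 were higher in the striatum, and both bHLH genes Twist1 and Tal1 in the cortex.

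**Figure D2:**
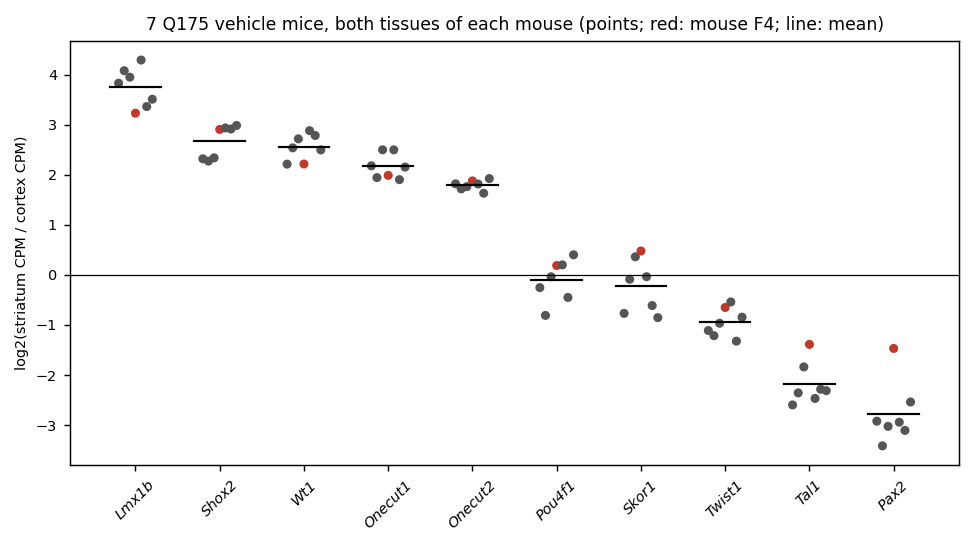
log2 ratio of striatum to cortex CPM in each of the 7 Q175 vehicle mice (points, mouse F4 in red) with the mean as a line. Lmx1b, Shox2, Wt1, Onecut1 and Onecut2 lie above 0 and Pax2, Tal1 and Twist1 below it in every mouse, and Pou4f1 and Skor1 lie on both sides of 0.

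Pax2 and Tal1 in the striatum moved with markers of the cortex. Over the 36 Q175 striatum libraries, as deviations from group and sex means, Pax2 went with the summed cortical excitatory neuron markers (r = 0.684, adjusted permutation p = 0.0002; rho = 0.682, adjusted p = 0.00045; r = 0.715 without the 2 libraries farthest from the median). The same held for Tal1 (r = 0.658, adjusted permutation p = 0.0002; rho = 0.605, adjusted p = 0.00045; r = 0.690 without 2 libraries). Wt1 went the other way with these markers (r = -0.455, adjusted permutation p = 0.0256; rho = -0.478, adjusted p = 0.0169; r = -0.448 without 2). Onecut1 was negative too (r = -0.425, adjusted permutation p = 0.0367; rho = -0.361, adjusted p = 0.0985; r = -0.465 without 2). With the thalamus and habenula markers, Onecut1, Onecut2 and Wt1 had r of -0.534, -0.512 and -0.594 (adjusted permutation p of 0.0071, 0.0073 and 0.0073; rho -0.649, -0.474 and -0.617, adjusted p of 0.0005, 0.0317 and 0.00415; r of -0.515, -0.396 and -0.516 without 2). Pax2 and Tal1, both higher in the cortex, were thus high in striatum libraries with more cortical marker RNA, while Onecut1, Onecut2 and Wt1 were low in those with more thalamic marker RNA. Other members did not follow this. Twist1, also higher in the cortex, was not called with the cortical markers (r = 0.103, adjusted permutation p = 0.624). Lmx1b (-0.158) and Shox2 (0.480), both higher in the striatum, were not called with the thalamic markers (adjusted permutation p of 0.337 and 0.0553). The share of all genes that goes with these markers was not computed. The part of these markers in the levels was not tested. In the cortex, the MSN markers went with Pax2 (r = -0.548, adjusted permutation p = 0.0098; rho = -0.440, adjusted p = 0.0532; r = -0.463 without 2) and Pou4f1 (r = -0.469, adjusted permutation p = 0.0165; rho = -0.518, adjusted p = 0.0159; r = -0.512 without 2). Each marker list and tissue gave 10 relations, over which p-values were adjusted, and of the 10 relations to the GC slope of the libraries 0 were called in either tissue (permutation test).

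The inhibitor was compared with vehicle among Q175 mice. The 3 doses share the same 7 vehicle mice with each other and with the contrast that picked the genes. In the striatum 0 of the 10 genes were called at 0.32, 1.0 or 3.2 mg/kg (edgeR quasi-likelihood test), where 2.49%, 1.07% and 1.48% of 17315 genes were called. At an unadjusted edgeR p under 0.05 there were 3, 0 and 1 of the 10, beside 3307, 3230 and 1416 of the 17315 genes. DESeq2 called 0, 0 and 1 of the 10, and limma on FPKM values 0, 0 and 1. The gene was Twist1 each time at 3.2 mg/kg. Its lowest, median and highest levels in the striatum were 1.07, 1.46 and 1.75 CPM with vehicle, 0.595, 0.889 and 1.95 CPM at 0.32 mg/kg, 0.601, 0.933 and 2.22 CPM at 1.0 mg/kg and 0.339, 0.796 and 1.43 CPM at 3.2 mg/kg. The dosed groups overlapped the vehicle group. The log2 difference of Twist1 at 3.2 mg/kg was -0.75 ± 0.208, and its edgeR adjusted p of 0.0511 missed the threshold of 0.05. It was 0.0345 with DESeq2, 0.0264 with limma and 0.0438 with the GC slope of each library as a term. Only these 3 of the settings run called it, and the others left it uncalled. Leaving out 1 mouse at a time gave 0.0239 to 0.204, with a call for 4 of the 16 mice left out. The gene was called without 3.2 mg/kg mouse M1 (0.0279), F2 (0.0437) or F5 (0.0239) and without vehicle mouse F3 (0.0452), all edgeR adjusted p.

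**Figure D3:**
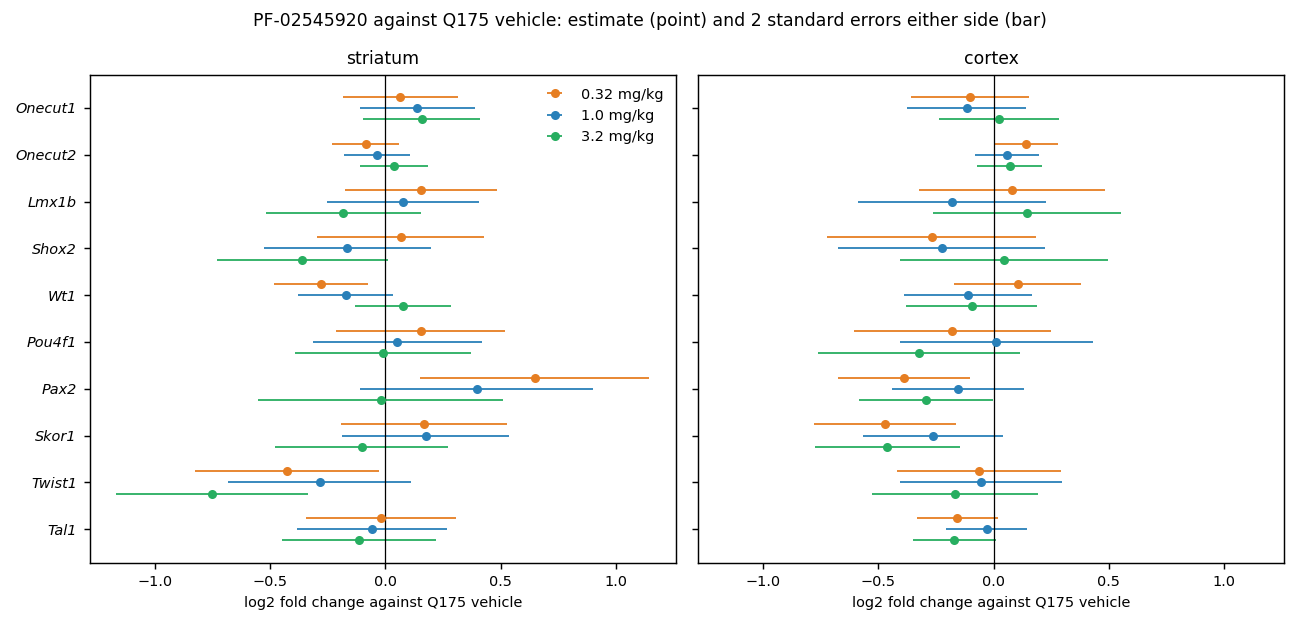
log2 difference of each dose from Q175 vehicle for the 10 genes in the striatum and the cortex, with points for the estimate and bars for 2 SE either side. Most bars cross 0. In the striatum the bars of Twist1 at 0.32 and 3.2 mg/kg (-0.43 and -0.75) and Wt1 at 0.32 mg/kg (-0.28) lie to the left of 0. In the cortex those of Skor1 (-0.47 and -0.46) and Pax2 (-0.39 and -0.29) at 0.32 and 3.2 mg/kg do so. At 0.32 mg/kg Pax2 in the striatum (0.65) and Onecut2 in the cortex (0.14) lie to the right. Of all these only Skor1 at 0.32 mg/kg was called (edgeR).

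The intervals bound what the doses could have done. In the striatum the 2 SE range at 3.2 mg/kg was -0.11 to 0.19 for Onecut2, -0.10 to 0.41 for Onecut1, -0.13 to 0.28 for Wt1, -0.52 to 0.16 for Lmx1b and -0.73 to 0.01 for Shox2. None of these ranges reached the size of the difference between the genotypes, which was 0.56 for Onecut2, 4.46 for Shox2 and above 5 for Onecut1, Wt1 and Lmx1b. The genes were picked on that difference, and it shares the vehicle mice with the dose contrasts, so its size is a description. Pax2 had the widest range there, -0.55 to 0.51. A dose trend in equal steps over the 36 Q175 mice was called for 0 of 10 genes in the striatum (edgeR, DESeq2 and limma), where 1.77% of 17193 genes were called. An unadjusted edgeR p under 0.05 was reached by 1783 of the 17193 genes and by 2 of the 10. These were Twist1, with a slope of -0.20 ± 0.0678 per step (adjusted p = 0.169), and Shox2, with -0.14 ± 0.0455 (adjusted p = 0.133). The Shox2 medians were 10.3, 11.3, 9.52 and 8.61 CPM from vehicle to the highest dose.

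In the cortex 1 gene, Skor1, was called at 0.32 mg/kg, where 10.2% of 17603 genes were called. Its lowest, median and highest levels were 0.819, 1.52 and 1.71 CPM with vehicle and 0.671, 1.05 and 1.30 CPM at 0.32 mg/kg. The groups overlapped. The log2 difference was -0.47 ± 0.154 (edgeR adjusted p = 0.042). The GC slope of the libraries, the log2 change of their genes per 10 points of GC, moved with this contrast, with a median of 0.0438 for vehicle and -0.0647 for 0.32 mg/kg. With it as a term the difference of Skor1, whose transcripts have a GC content of 61.5%, was -0.24 ± 0.204 (edgeR adjusted p = 0.774), and 16 genes in place of 1789 were called. The call was also lost without vehicle mouse M1, F1, M2, F2 or F5 (adjusted p of 0.0788, 0.07, 0.0961, 0.111 and 0.0617, edgeR), and with no expression filter (0.0659), limma (0.0531) and the L number of the library as a term (0.0919).

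At 1.0 mg/kg 0 of the 10 genes were called in the cortex, where 20.7% of all genes were. The GC slope moved with this contrast too, with a median of 0.0438 for vehicle and -0.0349 for 1.0 mg/kg. The share called with it as a term is not given here. None of the 10 had an unadjusted p under 0.05, beside 5905 of 17603 genes. At 3.2 mg/kg 0 of the 10 were called and 0.00% of all genes, with 2 of the 10 and 1307 of all genes under an unadjusted 0.05. The trend in the cortex called 0 of the 10 and 0.00% of 17477 genes, with 1 of the 10 and 756 of all genes under an unadjusted 0.05. DESeq2 and limma called 0 of the 10 in these 3 cortex tests as well. Skor1 at 3.2 mg/kg differed by -0.46 ± 0.157 with an edgeR adjusted p of 0.528, and at 1.0 mg/kg by -0.26 ± 0.152 (adjusted p = 0.227). Pax2 medians in the cortex were 4.26 CPM with vehicle and 3.25, 3.60 and 3.24 CPM with rising dose, with log2 differences of -0.39 ± 0.143, -0.15 ± 0.142 and -0.29 ± 0.145 (edgeR adjusted p of 0.071, 0.48 and 0.67). DESeq2 called Pax2 at 0.32 mg/kg.

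Sex was compared among the 36 Q175 mice, 20 females and 16 males, with the group as a term. In the striatum 3 of 10 genes were higher in females, where 6.0% of 17193 genes were called. Twist1 had a lowest, median and highest level of 0.595, 1.30 and 2.22 CPM in females and 0.339, 0.730 and 1.46 CPM in males. The difference was 0.75 ± 0.145 on the log2 scale (edgeR adjusted p = 0.00288), and it was called with DESeq2, limma, no filter, and the L number, GC slope or cortical marker level as a term, as well as without each mouse in turn. Wt1 had 3.61, 5.21 and 6.84 CPM in females and 3.06, 4.25 and 5.86 CPM in males, a difference of 0.24 ± 0.066 (edgeR adjusted p = 0.0274). Pou4f1 had 1.05, 1.55 and 2.25 CPM in females and 0.580, 1.21 and 1.68 CPM in males, a difference of 0.42 ± 0.128 (edgeR adjusted p = 0.0445). The sexes overlapped for all 3 genes. The Pou4f1 call was lost without 20 of the 36 mice, each left out alone (adjusted p from 0.0265 to 0.0814), and with the GC slope as a term both Pou4f1 (0.137) and Wt1 (0.0605) missed the threshold. Shox2 had a fitted difference of 0.00 and was not called, and a test statistic at 0 gives no usable SE. Its level was 10.15 ± 1.879 CPM in females and 10.22 ± 2.755 CPM in males (mean and SD).

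In the cortex 1 gene, Wt1, was higher in females, where 2.05% of 17477 genes were called. Its levels were 0.670, 0.952 and 1.29 CPM in females and 0.521, 0.738 and 1.07 CPM in males, a difference of 0.36 ± 0.0956 (edgeR adjusted p = 0.0367). This call was lost without 13 of the 36 mice, each left out alone (adjusted p from 0.0238 to 0.0649), and with no filter (0.0599), limma (0.0563), the L number (0.253) or the GC slope (0.0552). Twist1 differed by 0.33 ± 0.127 in the cortex with an adjusted p of 0.145. Whether the sexes differ more in the striatum than in the cortex was not tested. The 7 vehicle mice include only 2 males, so most of the male values come from dosed mice.

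Levels also varied from mouse to mouse within a group and sex. Over the 36 Q175 mice, deviations of log2 CPM from group and sex means were compared for all 45 pairs of the 10 genes, with permutation p-values adjusted over the 45. In the striatum 13 pairs were called, 10 positive and 3 negative, and the median r was 0.214. The members against all other genes tested had a median r of 0.00 and a central 90% of -0.415 to 0.432, and values of 1 library share its depth and base composition. For every 50th gene against all others the central 90% was -0.459 to 0.482, and some of the called pairs below lie within it. The share of pairs called among other genes was not computed in either tissue. Lmx1b and Twist1 had the highest r (0.644, adjusted permutation p = 0.00765; rho = 0.671, adjusted p = 0.00435; r = 0.613 without the 2 mice farthest from the median). Pou4f1 and Shox2 had an r of 0.635 (adjusted permutation p = 0.0009; rho = 0.654, adjusted p = 0.00135; r = 0.576 without 2). For Pou4f1 and Skor1, whose promoters are the most CpG-rich above, r was 0.609 (adjusted permutation p = 0.0087; rho = 0.613, adjusted p = 0.00603; r = 0.584 without 2), and on log2 FPKM values it was 0.332 and not called (adjusted permutation p = 0.135). Shox2 also went with Twist1 (0.569), Skor1 (0.502), Lmx1b (0.495) and Tal1 (0.448), Skor1 with Twist1 (0.484) and Onecut1 with Onecut2 (0.412), all called. On FPKM values Shox2 with Lmx1b (adjusted permutation p = 0.0525) and Onecut1 with Onecut2 (0.0579) missed the threshold. Wt1 stood apart, with negative r to Tal1 (-0.538), Shox2 (-0.498, not called on FPKM values, adjusted permutation p = 0.0576) and Pax2 (-0.418).

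The negative relations of Wt1 to Tal1, Shox2 and Pax2 were smaller once marker levels were taken out. With the summed cortical and thalamic marker levels removed, 10 pairs were called, 9 of them positive. The negative one was Wt1 with Lmx1b (r = -0.432, adjusted permutation p = 0.0471; rho = -0.384, adjusted p = 0.0818), which was not called before (-0.213). The relations of Wt1 to Tal1, Shox2 and Pax2 were then -0.352, -0.357 and -0.167 and not called, and Pax2 with Tal1, at 0.506 before, and Onecut1 with Onecut2 (0.166, adjusted permutation p = 0.464) were not called either. This alternative was chosen after seeing the data.

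In the cortex of the same mice, added as an alternative, 14 pairs were called and all were positive, with a median r of 0.295. Twist1 with Tal1 (r = 0.776, adjusted permutation p = 0.00015; rho = 0.768, adjusted p = 0.000225; r = 0.780 without 2) and Pou4f1 with Twist1 (r = 0.770, adjusted permutation p = 0.00015; rho = 0.822, adjusted p = 0.000225; r = 0.803 without 2) were the highest. The 14 pairs were all among Pou4f1, Pax2, Shox2, Skor1, Twist1 and Tal1, so that of Lmx1b, Shox2, Wt1, Onecut1 and Onecut2 only Shox2 took part. Of the 45 pairs 6 were called in both tissues, namely Pou4f1 with Shox2, Pou4f1 with Skor1, Pax2 with Tal1, Shox2 with Twist1, Shox2 with Tal1, and Skor1 with Twist1. Of these, Pou4f1 with Skor1 was not called in the striatum on FPKM values, and Pax2 with Tal1 was not called there with marker levels removed. With the L number as a further term, Pax2 with Tal1 (adjusted permutation p = 0.0554) and Skor1 with Twist1 (0.074) missed the threshold in the striatum.

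**Figure D4:**
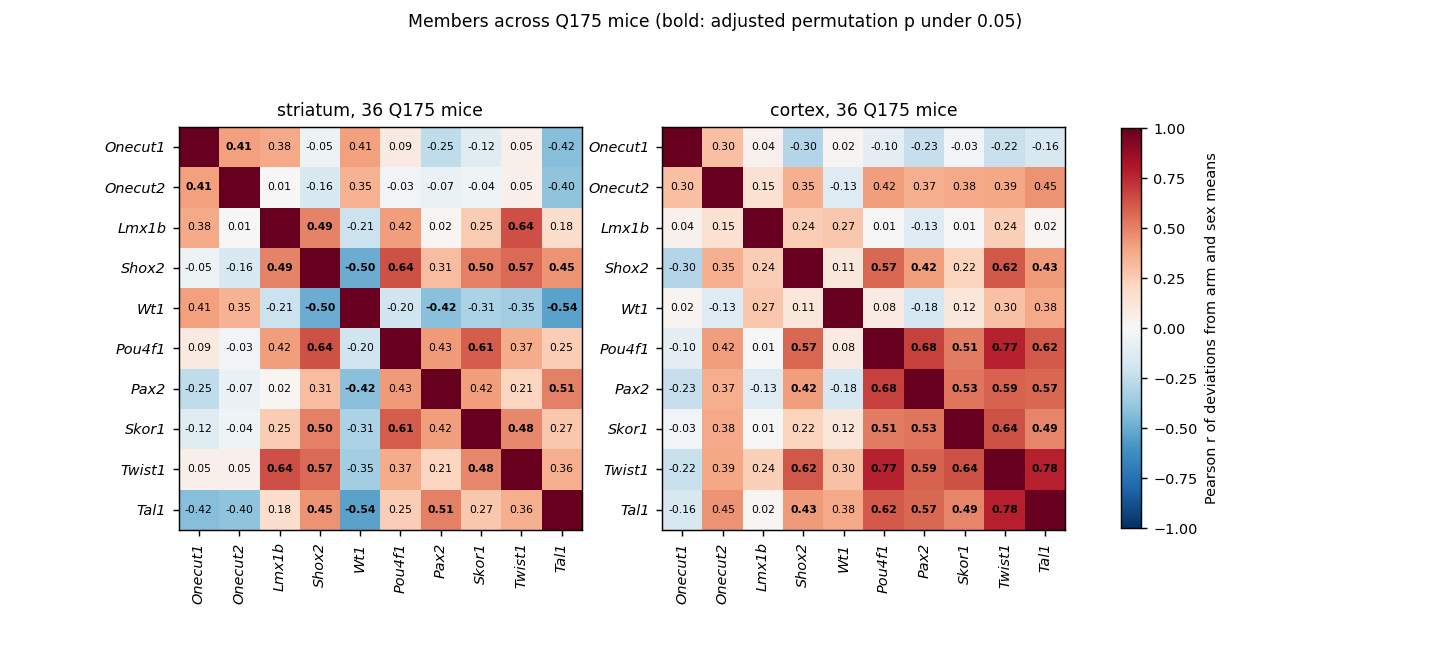
Pearson r between the genes across 36 Q175 mice in the striatum and the cortex, on deviations from group and sex means, with r in bold where the adjusted permutation p was under 0.05. Pou4f1, Shox2, Skor1 and Twist1 are positive with each other in both tissues, and Wt1 has negative values in the striatum, down to -0.538.

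Whether a mouse that was high in one tissue was high in the other was tested for the 10 genes. It was called for 4: Pou4f1 (r = 0.693, adjusted permutation p = 0.0002; rho = 0.709, adjusted p = 0.0002; r = 0.732 without 2, and r = 0.419 on FPKM values with adjusted permutation p = 0.0479 and a rho that was not called, adjusted p = 0.0626), Shox2 (r = 0.550, adjusted permutation p = 0.0171; rho = 0.563, adjusted p = 0.0103; r = 0.462 without 2), Twist1 (r = 0.507, adjusted permutation p = 0.0171; rho = 0.480, adjusted p = 0.0147; r = 0.368 without 2) and Skor1 (r = 0.462, adjusted permutation p = 0.0194; rho = 0.506, adjusted p = 0.0146; r = 0.486 without 2). These are the 4 genes whose promoters are shown. Tal1 (0.0698), Wt1 (0.110), Onecut1 (-0.118) and Onecut2 (-0.122) were near 0, and Pax2 (0.306) and Lmx1b (0.426, adjusted permutation p = 0.106) were not called. Agreement between tissues was common among all 17010 genes tested, with a median r of 0.218, and 4.86% of them reached the value of Pou4f1, 12.8% that of Shox2, 16.1% that of Twist1 and 20% that of Skor1.

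**Figure D5:**
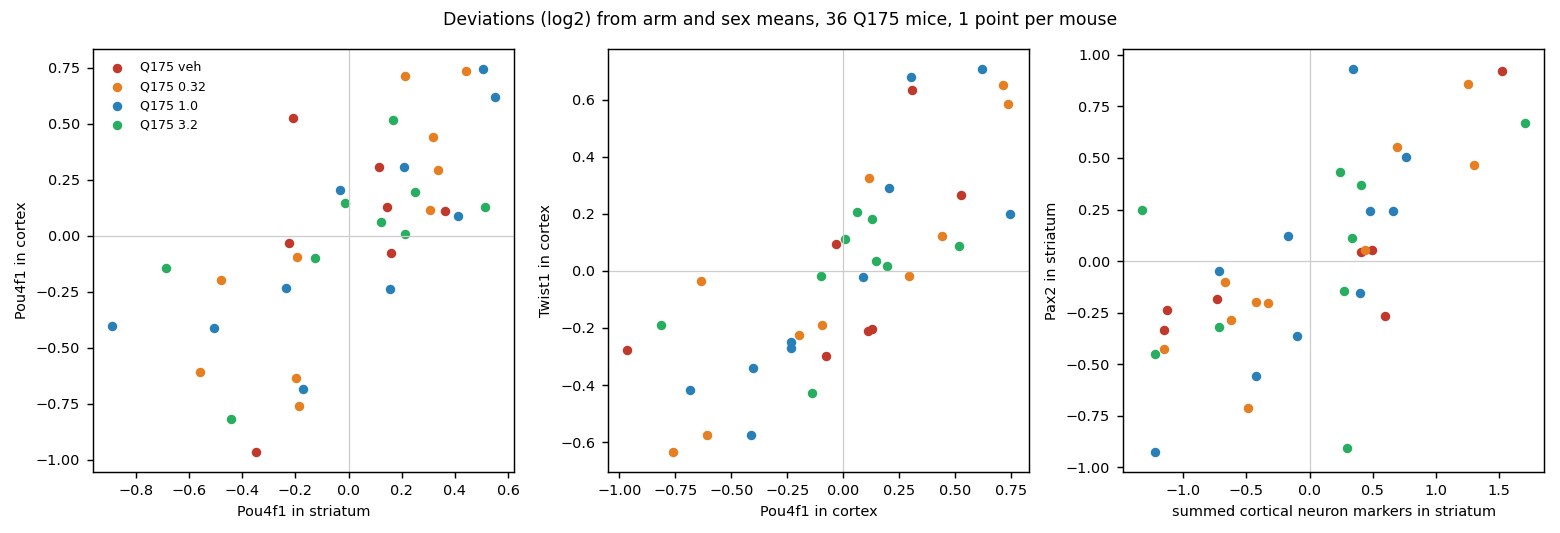
Deviations of log2 level from group and sex means, 1 point per Q175 mouse (n = 36), coloured by dose: Pou4f1 in the striatum against the cortex, Twist1 against Pou4f1 in the cortex, and Pax2 against the summed cortical neuron markers in the striatum. All 3 panels rise from left to right, with r of 0.693, 0.770 and 0.684.

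Among the genes most like the members over the 10 tissue-by-group means of log2 CPM, out of 17010, were the growth factor receptor gene Fgfr4 (r = 0.995), the urea cycle gene Asl (0.987), the homeobox gene Hoxc6 (0.986) and the fatty acid oxidation gene Acadvl (0.985). The comparison was with the mean of the members' standardised profiles. Skor1 (0.989) and Pou4f1 (0.988) were closest to that mean, then Onecut1 (0.914), Wt1 (0.874) and Shox2 (0.861), and Onecut2 (0.498) and Tal1 (0.166) were farthest from it.

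Other genes of these families and their partners were counted between Q175 vehicle and WT vehicle mice. The lists were drawn up by family and function. In the striatum 21.9% of all 17315 genes were called higher and 23.2% lower, and in the cortex 14.0% of 17603 higher and 16.4% lower. Over the 5 lists 33 genes were called higher and 32 lower in the striatum, and 32 and 26 in the cortex. On FPKM values (limma) it was 58 higher and 19 lower in the striatum and 43 and 14 in the cortex, where edgeR without the expression filter gave 45 and 17. On the FPKM scale the median of all genes was 0.11 in the striatum and 0.05 in the cortex, in place of 0.00. Of 28 close relatives of the members, 10 were measured in the striatum, where 2 rose and 3 fell (median log2 difference 0.02, all genes 0.00). Pax6, the eye and forebrain paired-box gene, rose by 0.82 ± 0.0786, from 7.80 to 14.0 CPM, and Pou4f3, a sensory neuron paralogue of Pou4f1, rose by 2.77 ± 0.378, from 0.0501 to 0.367 CPM (edgeR adjusted p = 4.62e-12 and 4.19e-08). In the cortex 4 of 16 rose and 2 fell, the largest rise being that of the LIM homeodomain gene Lhx4, by 3.37 ± 0.313, from 0.0521 to 0.571 CPM (edgeR adjusted p = 6.51e-12).

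Other homeobox genes of development were measured in 39 of 84 cases in the striatum, of which 13 rose and 4 fell, with a list median of 0.18. Irx5 rose by 3.05 ± 0.284 (0.0834 to 0.763 CPM) and Nkx6-1 by 2.60 ± 0.330 (0.0977 to 0.640 CPM), whereas Dlx6, a gene of striatal neurons, fell by 0.51 ± 0.0496 (edgeR adjusted p = 2.37e-12, 8.03e-09 and 8.67e-12). In the cortex 12 of 44 rose and 6 fell, with a median of 0.06. Barx1 had the largest rise among the named genes of that list, from 0.00263 to 1.08 CPM, and the interneuron gene Dlx1 fell by 0.38 ± 0.0626 (edgeR adjusted p = 4.2e-15 and 3.84e-06). Of the bHLH, forkhead, GATA, T-box and zinc finger genes 6 of 55 rose and 6 fell in the striatum, and 6 of 67 rose and 4 fell in the cortex. Their medians were -0.03 and 0.02, and the share higher was below that of all genes in both tissues. The largest change among the named genes of this list was a fall of the activity-regulated gene Egr2, by 2.48 ± 0.415 in the striatum (edgeR adjusted p = 2.83e-06).

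Of 25 partners of the members 5 rose and 10 fell in the striatum, and 4 rose and 9 fell in the cortex. Lmo2, which bridges Tal1 and its DNA-binding partners in blood cells, fell by 1.01 ± 0.0528, from 49.6 to 24.8 CPM in the striatum (edgeR adjusted p = 1.6e-20). Tcf12, which pairs with bHLH proteins such as Twist1 and Tal1, rose by 0.32 ± 0.0377 there and by 0.19 ± 0.0296 in the cortex (edgeR adjusted p = 1.33e-09 and 1.84e-06). Of 35 Polycomb and H3K27 demethylase genes 7 rose and 9 fell in the striatum, and 6 rose and 5 fell in the cortex, with medians of 0.00 and 0.02. Cbx8, which encodes a chromobox reader of Polycomb repressive complex 1, rose by 0.79 ± 0.0727 in the striatum and by 0.49 ± 0.0581 in the cortex. Epop, a component of Polycomb repressive complex 2, fell by 1.35 ± 0.164 in the striatum and by 0.68 ± 0.0666 in the cortex. The edgeR adjusted p of these 4 changes was 4.1e-09 or less.

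Of the nearest protein-coding and overlapping genes, Stil, Rsrc1, Fech and Mvb12b were called higher and Fam214a, St8sia3, Slf2 and Zbtb43 lower in the striatum (edgeR). Among all 17315 genes 21.9% were called higher and 23.2% lower there, so such calls are common and say little about these loci. The log2 differences of Fech (0.13), Slf2 (-0.13) and Zbtb43 (-0.10) were small. Tal1 (chromosome 4, 115056426 to 115071755, plus strand, GRCm38) has Stil, a centriole gene, 13.2 kb to its left. Stil rose from 0.474 to 1.56 CPM in the striatum (1.75 ± 0.168, edgeR adjusted p = 6.03e-12), where the genotype groups of Tal1 overlapped, and from 0.700 to 1.49 CPM in the cortex (1.11 ± 0.170, edgeR adjusted p = 1.06e-06). Pdzk1ip1, on the other side of Tal1, was under 0.4 CPM in both tissues. St8sia3, left of Onecut2, fell by 0.66 ± 0.065 in the striatum (edgeR adjusted p = 9.65e-12). Beside Wt1 (chromosome 2, 105126529 to 105173616, plus strand), Gm11060 was at 0 and Them7 at 0.0231 CPM or less, and beside Twist1 (chromosome 12, 33957671 to 33959829, plus strand), Ferd3l stayed under 0.06 CPM and Hdac9 differed by 0.07 ± 0.0714 in the striatum (edgeR adjusted p = 0.478). Around Pou4f1 (chromosome 14, 104461676 to 104467999, minus strand), neither Ednrb nor Rnf219 was called in either tissue. Around Skor1 (chromosome 9, 63138170 to 63148961, minus strand), neither Pias1 nor Map2k5 was called.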

How the data were processed

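RNA-seq of cortex and striatum from 45 mice was used. The authors deposited 1 estimated count (expected count) for each gene in a library, not always whole, and 1 FPKM value, scaled by length and depth. CASAVA 1.8.2 appears in the submitters' processing notes without a stated role. For the aligner, genome build, annotation and use of strand, the sources used here give no name. GENCODE M21 (GRCm38) supplied symbols and coordinates, which named 36639 of 38561 IDs holding 99.7% of counts. Promoters are those of RefSeq for GRCm38.p6.

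Counts (81.5% whole within 1e-06) were rounded and tested with edgeR 4.0.16 (quasi-likelihood, TMM, its expression filter) in R 4.3.3, with terms for 5 groups and sex over the 45 libraries of a tissue, and Benjamini-Hochberg adjustment over all genes at 0.05. The filter kept all 10 members in both tissues. The trend and sex tests used 36 Q175 mice and the tissue test paired libraries by animal number. DESeq2 1.42.0 and limma 3.58.1 on log2(FPKM + 0.1) were alternatives. The edgeR step was checked on simulated data. Correlations used log2 CPM (prior count 2) and 100000 permutations within group and sex; the smallest p these can give is 1e-05. Replicates are separate mice. Standard errors are the size of the log2 difference divided by the square root of the edgeR F statistic, and ranges are 2 SE either side. Such an SE is not a direct estimate of the fit. It can be too small for large differences from the few counts of WT mice.

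The members and the gene lists were chosen with earlier results of these data known. Named genes were the 10 members, up to 4 genes per direction and list with the smallest p and a mean log2 CPM of at least -3, the 5 genes of closest profile, and the neighbouring or overlapping genes. Unnamed predicted genes were skipped. Some genes that the rule names are not reported here.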

Additional observations from a re-analysis of the deposited data

Results flagged for a closer look

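In 3 of 100 groups of a gene, tissue and arm, the highest mouse stood apart from the others by Dixon's test at the 95% level, and chance flags about 1 in 20 groups. Pax2 in the striatum of Q175 vehicle F4 was 1.268 CPM (40 counts), the next mouse having 0.562 CPM and the other 6 a mean of 0.521 ± 0.0268 CPM. In that library the cortical excitatory neuron markers summed to 255.8 CPM, against at most 134.7 CPM in the other 6, and the erythroid markers to 1205 against at most 165.6 CPM. Their part in the Pax2 value was not tested. Shox2 in the cortex of 3.2 mg/kg F4 was 4.541 CPM (181 counts), the next mouse having 2.18 CPM and the other 8 a mean of 1.39 ± 0.425 CPM. Its thalamus and habenula markers summed to 189.2 CPM, against at most 139.2 CPM in the other 8, and their part was not tested. Twist1 in the striatum of 0.32 mg/kg F4 was 1.947 CPM (73 counts), the next mouse having 1.30 CPM and the other 9 a mean of 0.889 ± 0.238 CPM, and each of the 16 marker lists in that library lay within the range of the other 9.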

How the results depend on the processing

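No called difference of the members changed direction under the settings run. Skor1, not called between the tissues in vehicle mice (-0.23), was called at 0.20 in the 29 dosed mice, which made 9 genes in place of 8. Of the counts recomputed under other settings 83 stayed close to the reported one and 19 did not. At 0.32 mg/kg in the cortex the count of members called was 1, and it was 0 with no expression filter, on FPKM values with limma, with the L number of the library description as a term, with the replicate block and with the GC slope as a term, and 2 (Pax2 and Skor1) with only the 2 arms compared. DESeq2 called 1, Pax2. Leaving out vehicle mice gave 0 to 1. Skor1 itself ran from -0.56 to -0.42. At 3.2 mg/kg in the striatum the count was 0, and 1 (Twist1) with DESeq2, limma and the GC slope, with 0 to 1 when leaving out 1 mouse. Sex in the striatum called 3 members, 1 (Twist1) with the GC slope and 2 to 4 when leaving out 1 mouse. Sex in the cortex called 1, and 0 with no filter, limma, the L number and the GC slope, with 0 to 1 when leaving out 1 mouse. List genes called in the striatum were 33 higher and 32 lower, and 58 and 19 on FPKM values. In the cortex 26 were lower, 17 with no filter and 14 on FPKM values. Of the 45 pairs 13 were called in the striatum and 14 in the cortex, and in the striatum 9 on FPKM values, 13 with the L number, 16 with the GC slope and 10 with marker levels removed, and in the cortex 14 with the GC slope and 20 with MSN and thalamic marker levels removed. The tissue difference in vehicle mice had the same 8 genes without each mouse.

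The replicate numbers were not taken to pair mice across arms, since no label ties a number to a shared litter or batch. Of the same-numbered pairs 5 of 7 in the striatum and 6 of 7 in the cortex correlated above 0.1 at each dose. The median r was 0.111 to 0.179 for same-numbered pairs and -0.0519 to 0.0024 for others. Levels were centred on the arm and not on sex. Same-numbered mice share their sex while the other pairs mix the sexes, so sex was not separated here. With the replicate block Skor1 at 0.32 mg/kg was -0.47 (edgeR adjusted p = 0.0763), and all genes called there went from 1789 to 1265. In the striatum the block took the calls from 431 to 60 at 0.32 mg/kg and from 186 to 1 at 1.0 mg/kg. Alternatives with the GC slope, marker levels, the cortex pairs, leaving out mice for sex and tissue, the dosed mice for tissue, and DESeq2 for list genes were chosen after seeing the data. Depth limits Pax2 in the striatum (9 to 69 counts per Q175 library) and Lmx1b in the cortex (14 to 35).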
